A study of Mus musculus with 7 samples.

Results

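Of the 797 p65 summits deposited for wild-type regulatory T (Treg) cells, 321 (40.3%) lay in crowded or unplaced sequence and had no IRF4 summit beside them. They are called the members here. They were chosen by position alone. A p65 summit was a member if it lay on a contig named random or Un, on the mitochondrial genome (chrM), or in a run of 3 or more p65 summits each at most 50 kb from the next, and if neither IRF4 list had a summit within 200 bp. A run on a placed chromosome is called a dense region. The p65 positions and the distances to IRF4 summits thus selected the members, so these distances and the p65 scores are given as descriptions with no test.

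The lists came from chromatin immunoprecipitation sequencing (ChIP-seq) of mouse spleen Treg cells on a C57BL/6 background. WT cells were precipitated for p65 in 2 samples, after PMA plus ionomycin for 30 min. WT cells in 3 samples and RelA-deficient cells (p65KO) in 2 samples were precipitated for IRF4, after anti-CD3 plus anti-CD28 for 48 h. The labels state neither how RelA was deleted nor the age or sex of the animals. The series was designed to identify target genes of both factors. Each group came as 1 list of summits for its replicates together, so nothing below has a replicate error, and intervals are 95% Wilson intervals that cover counting error over summits only. Neighbouring summits of a crowd are not independent, so these intervals may be too narrow. The IRF4 lists held 5630 summits in WT and 4312 in p65KO cells. They were called at a q cut-off of 1e-06, against 0.05 for p65, so weaker IRF4 binding may be missing from them. Lack of IRF4 below means only that neither list had a summit within 200 bp. Read depth is unknown from summit lists.

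RelA (p65) is a DNA-binding subunit of NF-κB. It is held in the cytoplasm by inhibitory IκB proteins until a stimulus such as PMA plus ionomycin releases it to enhancers and promoters. IRF4 is a transcription factor induced through the T cell receptor and required by effector Treg cells. Unplaced contigs are pieces of the genome assembly whose chromosome is known but not their place on it (random) or whose chromosome is unknown (Un). Such pieces, the ends of the assembled chromosomes next to the centromeres, and arrays of recently duplicated genes are rich in sequence that occurs in many copies. Reads from such copies are hard to assign to 1 place, and copies missing from the assembly can pile reads onto the few that are present. Many ChIP-seq studies mask these places. An input library shows such pile-ups, and per the peak names none was used for these lists. The mitochondrial genome is outside the nucleus and is present in many copies per cell. Positions are mm9 coordinates, 1-based. Distances, runs and spans on random and Un sequence are along these coordinates only, and whether they hold in the genome was not tested.

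The members were made up of 4 kinds of sequence. Dense regions held 192 of them (59.8%), random contigs 87 (27.1%), the Un contig 35 (10.9%) and the mitochondrial genome 7 (2.18%). The lack of IRF4 did not set crowded or unplaced sequence apart as a whole. There, 321 of 490 p65 summits (65.5%, 61.2 to 69.6) had no IRF4 summit within 200 bp, which is close to the share in the whole p65 list (66.6%) and among the 307 isolated p65 summits (68.4%). The share differed between the kinds of sequence. It was 85.3% (77.1 to 90.9) of 102 summits on random contigs, 64.4% (58.8 to 69.6) of 298 in dense regions and 43.2% (33.0 to 54.1) of 81 on the Un contig. On the mitochondrial genome it was 77.8% (45.3 to 93.7) of 9. The rule used this share, so these values are descriptive.

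The rule made every member in a dense region crowded, while members on unplaced sequence could lie apart. Of the 129 members on unplaced sequence, 52 were in no run of 3, and 43 of those 52 lay on chrY_random. The nearest other p65 summit lay at a median of 2041 bp from members in dense regions and 2914 bp from members on chrUn_random. On chrY_random this median was 228919 bp. Over all members it was 2885 bp, beside 1376909 bp for the 210 isolated p65 summits without IRF4.

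**Figure D1:**
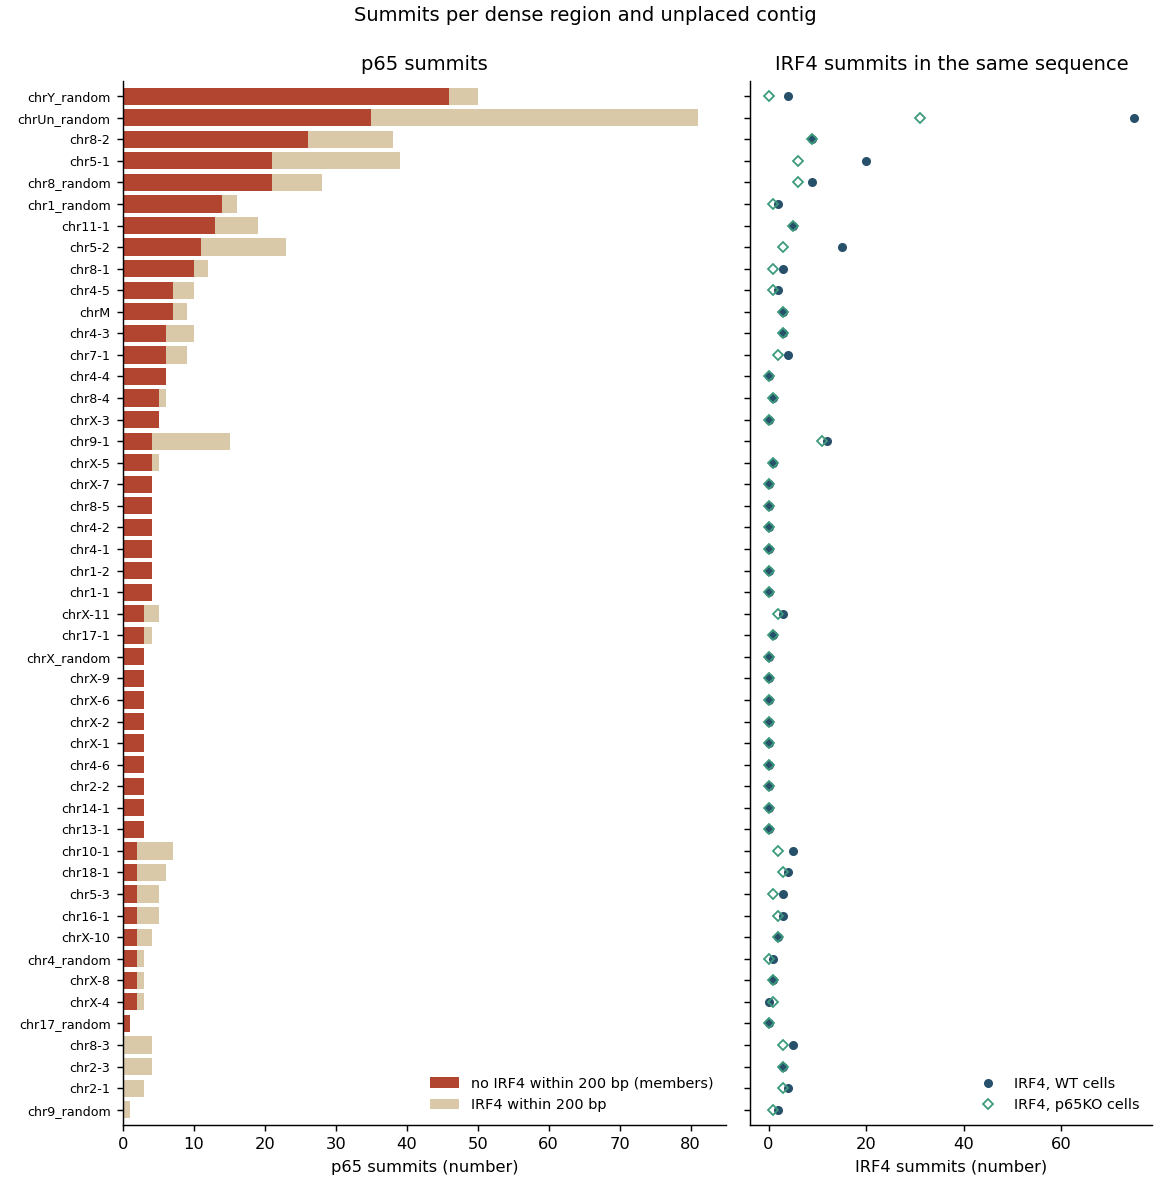
Left, number of p65 summits per dense region or unplaced contig, with members in red and p65 summits with IRF4 in sand. Right, number of IRF4 summits in the same sequence in WT (filled) and p65KO cells (open); a dense region is named by its chromosome and its order along it. The 46 members of chrY_random form the longest red bar, and chrUn_random has 75 WT and 31 p65KO IRF4 summits.

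Members were found in 36 of the 39 dense regions, on 15 chromosomes. The 10 regions with most members held 111 of the 192 (57.8%). These regions also held most of the 298 p65 summits in dense regions, so this share does not set the members apart. Chromosome 8 from 19854737 to 20032951 was first, with 26 members among 38 p65 summits in 178 kb. Its members scored from 3.21 to 19.98, with a median of 7.87. The score is the authors' own, a −log10 significance value per peak. An adjoining region on chromosome 8, from 19684233 to 19802079, held 10 members among 12 p65 summits. Together this pair held 12 WT and 10 p65KO IRF4 summits. The larger region had 9 of each, and the adjoining one had 3 WT and 1 p65KO summits.

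A second crowd lay on chromosome 5, where the regions from 14900181 to 15062141 and from 15112862 to 15220465 held 21 and 11 members. In contrast to chromosome 8, nearly as many p65 summits there had IRF4 (30) as lacked it (32). The IRF4 summits of this pair of regions were mostly of WT cells, 35 against 9 in p65KO cells. Over all 39 dense regions there were 109 WT IRF4 summits (1.94% of their list) and 67 p65KO IRF4 summits (1.55%). WT summits were the more numerous in 13 regions and p65KO summits in 1. The numbers were equal in 9, and 16 regions had no IRF4 summit of either genotype. The WT IRF4 list pools 3 samples and the p65KO list 2, and the part of this in the differences was not tested.

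The other regions among the first 10 were smaller. Chromosome 11 from 3000344 to 3098951, at the start of that chromosome's assembled sequence, held 13 members among 19 p65 summits. Chromosome 4 had 3 of the first 10, from 146728797 to 146812850 (7 members), from 146126341 to 146239925 (6) and from 146550621 to 146606477 (6). Chromosome 7 from 67003202 to 67041321 held 6 members, and chromosome 8 from 73655305 to 73683595 held 5. A region of chromosome X with as many members as the last, from 4259840 to 4275688, had fewer p65 summits in all.

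In 16 dense regions every p65 summit was a member, 59 members in all, and in each of these 16 the IRF4 lists had no summit. They were short runs of 3 to 6 p65 summits, spanning 1.23 to 83.0 kb. There were 6 of them on chromosome X, 4 on chromosome 4, 2 on chromosome 1 and 1 each on chromosomes 2, 8, 13 and 14. Their members scored from 2.54 to 16.97, with a median of 6.15, against 7.33 for the 133 members in regions that also held p65 summits with IRF4. The one with most p65 summits was the chromosome 4 region starting at 146550621, with 6 members in 55.9 kb and a median score of 7.26. The longest was on chromosome 1 from 87451956 to 87534941, with 4 members.

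2 stretches of the genome stood out once the regions had been laid out, and were chosen after their values were seen. On chromosome 4, 6 dense regions lay between 145254426 and 146971960 and held 30 members among 37 p65 summits, with 5 WT and 4 p65KO IRF4 summits. On chromosome X, 5 dense regions lay between 3193585 and 4782864 and held 17 members among 19 p65 summits, with 1 WT and 2 p65KO IRF4 summits. Members lack an IRF4 summit by the rule, and whether IRF4 summits were fewer in these stretches than elsewhere was not tested.

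The opposite pattern was seen in 9 dense regions, in which most p65 summits had IRF4, with 49 such summits and 23 members. On chromosome 9 from 3000455 to 3038150, 4 of 15 p65 summits were members, among 12 WT and 11 p65KO IRF4 summits. Chromosome 2 from 98502928 to 98506942 and from 181652540 to 181665793, and chromosome 8 from 56200479 to 56208453, had no member among 3, 4 and 4 p65 summits. The first of these had a median p65 score of 121.6 over 3 summits, above every member of the 321.

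Several of these regions sat at the starts of chromosomes. In mouse chromosomes the centromere lies at 1 end, and the placed sequence of mm9 starts after a gap there. The lowest p65 position on a placed chromosome was 3000344. Within the first 200 kb after this gap there were 59 p65 summits on 9 chromosomes, 25 of them members and 29 with IRF4. Members made up 40.3% of the whole p65 list, which is close to their share of these 59. Chromosome starts thus did not set the members apart from other p65 summits. The members among them were 13 on chromosome 11, 4 on chromosome 9, 3 on chromosome 17, 2 each on chromosomes 16 and 18, and 1 on chromosome X. Chromosomes 4, 6 and 12 had p65 summits there but no member. The members at these starts had a median score of 6.32, and the p65 summits with IRF4 there 32.1. This window was chosen after the positions were seen.

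The members were weak p65 summits. Their median score was 7.18 (interquartile range 5.36 to 10.7), and the range ran from 2.54 to 35.4. Isolated p65 summits without IRF4 had a similar median, 8.11 (5.34 to 12.0, n = 210). Those with IRF4 scored higher, 20.5 (12.3 to 34.7, n = 169) in crowded or unplaced sequence and 30.8 (14.1 to 61.9, n = 97) when isolated. Within the members, the medians were 6.61 in dense regions, 6.76 on the mitochondrial genome, 8.11 on random contigs and 8.28 on the Un contig. The groups overlapped widely.

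**Figure D2:**
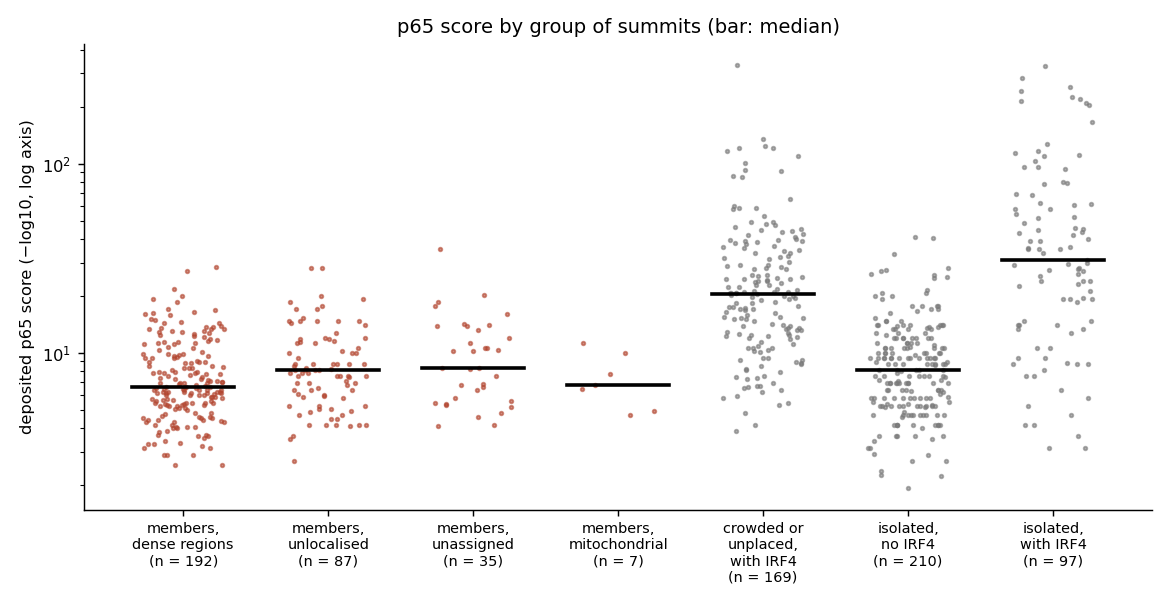
Deposited p65 score (−log10, log axis) of every p65 summit, by group, with a bar at the median. Members (red) lie between 2.54 and 35.4, in the range of the isolated summits without IRF4, while summits with IRF4 reach 332.

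By rank the members, 40.3% of the p65 list, lay mostly in its lower part. The highest 100 p65 summits included 1 member and the next 100 included 15. After rank 300, each further 100 summits held between 47 and 60 members, up to rank 700, and the last 97 held 54. Isolated p65 summits without IRF4 (n = 210) went the same way, with 3 in the highest 100, 16 in the next 100 and 36 in the last 97. Scores above 10 were given to 92 members and above 20 to 8.

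Low p65 scores and lack of IRF4 went together in crowded and in isolated sequence. At scores up to 5, 95.5% (87.5 to 98.4) of 66 crowded or unplaced p65 summits and 86.7% (73.8 to 93.7) of 45 isolated ones had no IRF4. Between scores of 5 and 10, 86.5% (80.9 to 90.6) of 192 and 89.4% (82.4 to 93.8) of 113 had none. Between 10 and 20 the shares were 60.9% (52.5 to 68.6) of 138 and 78.6% (67.6 to 86.6) of 70. Between 20 and 40 they were 12.7% (6.58 to 23.1) of 63 and 34.2% (21.2 to 50.1) of 38. The crowded or unplaced share was thus the higher value at scores up to 5 and the lower value from 5 to 40. The intervals overlap in each of these bins, but only at their ends from 10 to 40. Overlap of intervals does not show that the shares are equal. The difference was not tested, since the rule used both the crowding and the IRF4 distance. None of 31 crowded or unplaced summits above 40 lacked IRF4 (upper bound 11.0%), and 2 of 41 isolated ones did.

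Within a dense region the members were usually the weaker p65 summits. Members and summits with IRF4 occurred together in 20 regions, with 133 and 95 summits. The median score of the members was the lower one in 19 of them. The difference was smallest on chromosome 4 from 146728797, at 6.13 against 6.17. In 9 of the 20 every member scored below every summit with IRF4. Most of these 9 held few summits of either kind, such as chromosome X from 74144809 with 2 members and 1 summit with IRF4. On chromosome 9 from 3000455 the members had a median of 8.55 (3.68 to 16.3, n = 4) and the summits with IRF4 39.4 (21.04 to 117, n = 11), with no overlap. In the larger region of chromosome 8 the medians were 7.87 (n = 26) and 15.9 (n = 12), and in the larger region of chromosome 5 they were 6.59 (n = 21) and 15.3 (n = 18). Both pairs overlapped. The exception was chromosome 8 from 73655305, where 5 members had a median of 5.45 and the 1 summit with IRF4 scored 3.83. The IRF4 distance that divides these summits is part of the rule, so the order is a description.

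**Figure D3:**
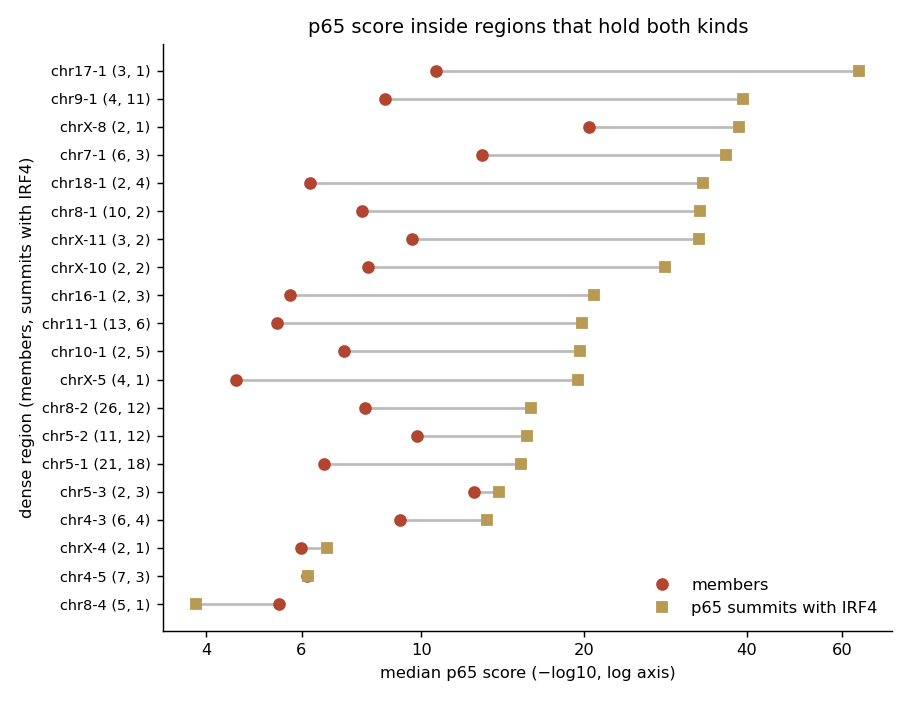
Median p65 score (log axis) of members (circles) and of p65 summits with IRF4 (squares) in the 20 dense regions that hold both; numbers in brackets give members and summits with IRF4. The circle lies to the left of the square in 19 regions.

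The highest member was chrUn_random at 3395658, which scored 35.4 and ranked 88 in the p65 list. It had a WT IRF4 summit 3140 bp away, and the nearest p65KO summit lay 153942 bp away. Chromosome X at 74146238 followed with 28.5 and had IRF4 summits of both genotypes at 402 and 422 bp. Then came 2 summits of chrY_random, at 19539400 and 26189163, with the same score of 28.2. The next were chromosome 7 at 67028525 (27.0), chromosome 5 at 15203846 (21.7) and chrUn_random at 3553612 (20.3). Ranks 8 to 10 among the members were chrY_random at 32185065 (20.01) and chromosome 8 at 20017544 (19.98) and 20030212 (19.3). Of these 10, 3 were on chrY_random and 2 on chrUn_random.

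The members differed in how far the nearest called IRF4 summit was from them. An IRF4 summit of either genotype lay within 1 kb of 38 members (11.8%), and none lay within 50 kb of 131 (40.8%), counting contigs without any IRF4 summit. Among isolated p65 summits without IRF4 the same counts were 12 of 210 (5.71%) and 130 (61.9%). The WT list had a summit within 1 kb of 35 members and the p65KO list of 16. At a further distance, from 1 to 10 kb, the numbers were 96 and 91. The 38 members within 1 kb had a median p65 score of 7.31, and the IRF4 summits nearest to them a median score of 16.3. A p65 summit that did have IRF4 lay within 5 kb of 92 members (28.7%) and within 1 kb of 23.

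**Figure D4:**
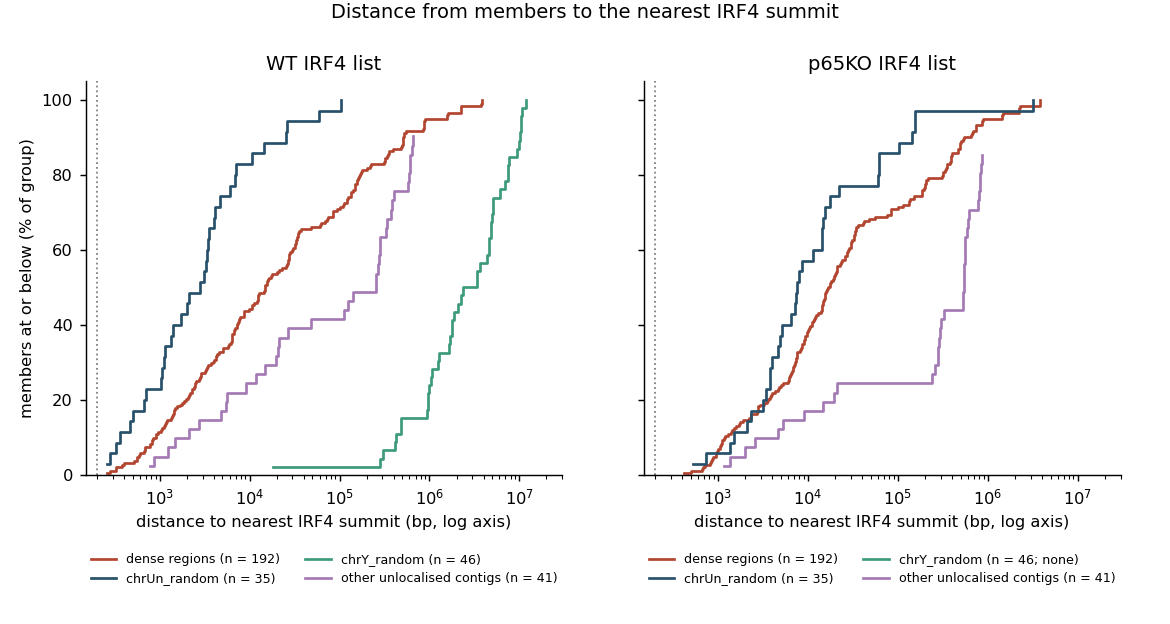
Percentage of members (y axis) with a WT (left) or p65KO (right) IRF4 summit at or below a distance (x axis, log scale), by kind of sequence (unlocalised contigs are those named random); the dotted line marks 200 bp, and curves that end below 100% belong to contigs without IRF4 summits. The 7 mitochondrial members are not drawn. In the WT panel the curve of chrUn_random lies leftmost and that of chrY_random rightmost, and chrY_random has no curve for the p65KO list.

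The members nearest to the matching distance of 200 bp were chrM at 14893 and 13472, with IRF4 at 214 and 249 bp, and chromosome 7 at 67003202, at 257 bp. Their p65 scores were 6.46, 11.3 and 12.5. The nearest p65 summits on the other side were chromosome 2 at 181663949 (176 bp, p65 score 18.9) and chrUn_random at 4262405 (158 bp, 7.45) and 4747057 (150 bp, 6.62). The largest gap inside a dense region was 49537 bp, on chromosome 4. The smallest larger gap whose inclusion would have added p65 summits to the dense regions was 55257 bp, also on chromosome 4, and would have added 2.

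The random contigs were dominated by chrY_random, sequence of the Y chromosome with no assigned place. It held 46 members among 50 p65 summits, spread from 833876 to 56565946. The 4 others had IRF4 in WT cells, and these were the 4 WT IRF4 summits of this contig. The p65KO IRF4 list had no summit there, and no list had a summit on the placed Y chromosome. Members of chrY_random had a median score of 8.73 (2.67 to 28.2), and 45 of the 46 were more than 50 kb from a WT IRF4 summit. Whether the 3 groups came from animals of the same sex is not stated, and its part in these counts was not tested.

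On the Un contig the order was reversed, since more p65 summits had IRF4 (46) than lacked it (35). By coordinate, the members there lay at a median of 2792 bp from the nearest WT IRF4 summit and 7543 bp from the nearest p65KO IRF4 summit. The contig held 75 WT IRF4 summits (1.33% of that list) and 31 p65KO summits (0.719%). A WT summit lay within 1 kb of 8 of the 35 members, and a p65KO summit of 2.

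The contig chr8_random held 21 members among 28 p65 summits, all 28 of them in runs of 3 or more, with 9 WT and 6 p65KO IRF4 summits. Its members scored from 4.09 to 15.2, with a median of 7.86, beside 7.18 over all members. In the dense regions of chromosome 8 that held members, their medians ran from 4.38 to 7.87. On chr1_random, 14 of 16 p65 summits were members, with a median score of 6.19, and the contig had 2 WT and 1 p65KO IRF4 summits. The 1 p65 summit of chr9_random had IRF4. All 3 p65 summits of chrX_random and the 1 of chr17_random were members on contigs without IRF4 summits. On chr4_random, 2 of 3 were members.

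The mitochondrial genome had 9 p65 summits between 406 and 15590, and 7 of them were members. Their positions were 1652, 3362, 4730, 11641, 13472, 14893 and 15590, and their scores ran from 4.69 to 11.3. Both IRF4 lists had 3 summits on this genome. A WT IRF4 summit lay within 1 kb of 3 of the 7 members and a p65KO IRF4 summit of 2.

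The members also differed in how often they shared an exact score with other p65 summits. Many p65 summits carried exactly the same score to the last deposited digit: 28 values were shared by 3 or more summits each, and together they took in 270 of the 797 (33.9%). The lowest 21 of these values ran from 2.67 to 14.8 in steps of 0.475 to 0.715, and the most common, 4.15, was given to 19 summits. As background, MACS2, the peak caller named in the submitters' notes, by default scores a peak against the larger of a genome-wide and a local read background. Peaks scored against the genome-wide value alone get equal scores for equal read pile-ups. The labels do not state the settings used, and whether this gives the recurring values was not tested.

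Recurring scores were given to 72 of the 321 members (22.4%, 18.2 to 27.3) and to 150 of the 210 isolated p65 summits without IRF4 (71.4%, 64.98 to 77.1). The members were not alike in this. On chrY_random 45 of 46 members had a recurring score, and the remaining one, at 25772198, shared its score of 18.5 with 1 other p65 summit. In dense regions 15 of 192 did (7.81%, 4.79 to 12.5), on chrUn_random 5 of 35, on chr8_random 1 of 21 and on the mitochondrial genome 0 of 7, where a share of up to 35.4% cannot be told from 0. The share on chrY_random was thus above that of isolated summits, and the shares in these other sequences were below it. Outside chrY_random, 27 of 275 members had a recurring score (9.82%).

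Recurring scores went with sparse p65 summits. Of 129 members with no other p65 summit within 5 kb, 60 had a recurring score (46.5%, 38.1 to 55.1). With 1 other summit it was 12 of 98 (12.2%, 7.15 to 20.2), and with 2 or with 3 or more it was 0 of 50 and 0 of 44 (upper bounds 7.13% and 8.03%). Among members with none within 5 kb, 21 of 89 outside chrY_random had a recurring score (23.6%), against 143 of 181 isolated p65 summits without IRF4 (79.0%). The median scores of the members lay between 6.91 with no neighbour and 7.90 with 1. The window of 5 kb and the definition of a recurring score were chosen after the scores were seen.

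**Figure D5:**
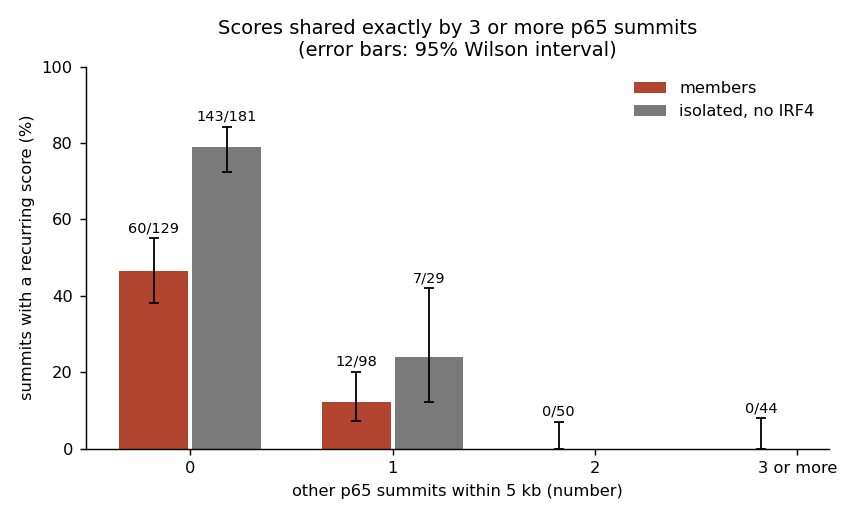
Percentage of p65 summits whose score is shared exactly by 3 or more summits of the p65 list, by the number of other p65 summits within 5 kb, for members (red) and isolated summits without IRF4 (grey), with 95% Wilson intervals and counts. Isolated summits have at most 1 neighbour; among members the share falls from 46.5% with no neighbour to 0 with 2 or more.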

How the data were processed

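The authors deposited 1 list of ChIP-seq peak summits per group: p65 in WT (2 samples), IRF4 in WT (3) and IRF4 in p65KO Treg cells (2), grouped by sample title. MACS2 2.1.0, Subread, featureCounts and mm9 are named in the submitters' processing notes. Peak names carry the words No-Input, so no input library entered the calls, at q cut-offs of 1e-06 (IRF4) and 0.05 (p65), per the names of the deposited lists. The deposited score is a −log10 significance value; the labels do not say whether it is of a p-value or q-value, nor how samples were pooled. The score was used only to describe and rank summits within a list.

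Positions are column 3 of the lists. The rule for members was applied as stated in the report and tested on simulated lists. Members, regions and measures were chosen with earlier results of these data known. No test was run, because the lists pool the replicates and the rule used positions and IRF4 distances. The regions and summits named are the 10 highest members, the 10 regions with most members, every unplaced contig, the summits nearest the 200 bp distance, and regions with no or mostly IRF4; others are marked. Software was matplotlib 3.10.9, scipy 1.17.1, pandas 2.3.3, numpy 2.4.6 and Python 3.11.15. No mm9 genome or annotation was used here, so the planned description of sequence and annotation was not run and no gene is named.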

Additional observations from a re-analysis of the deposited data

How the results depend on the processing

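With 17 other settings, the number of members (321) stayed within 1.5 times of that value in 13. It was 184 with IRF4 sought within 10 kb, 86 among p65 summits above the list's median score, 192 on placed chromosomes and 158 on autosomes. The share without IRF4 (65.5%) left its interval in 6: it was 71.0% within 100 bp, 57.8% within 1 kb, 37.6% (37.55) within 10 kb, 38.9% above the median score, 70.2% with the WT and 80.0% with the p65KO IRF4 list alone. The median score (7.18) became 6.68 within 10 kb, 13.3 above the median score, 7.87 with the p65KO list alone, 6.61 (6.605) on placed chromosomes and 6.57 (6.565) on autosomes. The median gap between successive members (11667 bp) became 25401 bp within 10 kb, 8824 bp with runs joined at 10 kb, 38981 bp above the median score, 8645 bp with the p65KO list alone, 8541 bp on placed chromosomes and 8030 bp on autosomes. What lay behind these changes was not tested. Leaving out chrY_random, added after the data were seen, left 275 members, 62.5% without IRF4 and a median score of 6.84. Read depth and the copy number of the sequence are not in the lists.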

Other observations

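Recurring scores were also counted in both IRF4 lists, which were precipitated with another antibody. In the WT list, 12 of 206 IRF4 summits in unplaced sequence or dense p65 regions had a score shared exactly by 3 or more summits of that list (5.83%, 3.36 to 9.90), against 1218 of 5424 elsewhere (22.5%, 21.4 to 23.6). In the p65KO list the counts were 8 of 109 (7.34%, 3.77 to 13.8) and 1018 of 4203 (24.2%, 22.9 to 25.5). IRF4 summits with another summit of their list within 5 kb showed the same order as p65 summits: the share was 25.2% of 4811 WT summits with no neighbour, 2.22% of 720 with 1 and 0 of 99 with 2 or more (upper bound 3.74%). In p65KO cells it was 26.3% of 3850, 3.46% of 434 and 0 of 28 (upper bound 12.1%). This was looked for after the p65 scores had been seen, and its cause was not tested.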
